A study of Mus musculus with 4 samples.

Results

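The genes described here are the carriers and pumps that move drugs, bile constituents, organic ions and lipids across membranes of the mouse liver. They were chosen by symbol as all Slco genes, the numbered Slc22a and Slc47a genes and the ABC genes of subfamilies A to G, without the bile salt pump *Abcb11* and the sterol pump genes *Abcg5* and *Abcg8*. The symbols match 89 of the 20642 genes of the deposited table. Of the 89, 47 are ABC genes and 42 are SLC carriers. The ABC subfamilies E and F share the ATPase fold and carry the name, but their products act on ribosomes and move no substrate.

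The data are PRO-seq counts (precision nuclear run-on sequencing, which maps the RNA being made by engaged RNA polymerase) from livers of C57BL/6 mice on postnatal day 14. WT mice were Alb-Cre+ *Hdac3*+/+ and KO mice were Alb-Cre+ *Hdac3* fl/- or Alb-Cre+ *Hdac3* fl/fl, so both groups carried the Cre transgene, which is driven by the albumin promoter, active in hepatocytes. Each of the 4 libraries, WT1, WT2, KO1 and KO2, was made from 20000000 nuclei pooled from 9 mice, and the spread between libraries is therefore a spread between pools. Values are normalized reads in the promoter-proximal region, the densest window of 50 bp near the start site, and in the gene body, which begins 1000 bp after it.

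Hepatocytes take up organic ions from the blood through carriers of the SLCO (OATP) and SLC22 (OCT, OAT, OCTN) families on their sinusoidal face. ABC pumps of the canalicular face then export conjugates, phospholipid and drugs into bile, and other ABC pumps of the basolateral face return conjugates to the blood. Many of these genes are controlled by nuclear receptors that sense bile acids, oxysterols or xenobiotics, and HDAC3 is a histone deacetylase that works within corepressor complexes used by nuclear receptors.

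*Hdac3* itself had 665 and 648 normalized gene body reads in WT1 and WT2 and 609 and 582 in KO1 and KO2, a log2 fold change of -0.14 ± 0.13 (SE, adjusted p = 0.413, limma). The gene body count sums the whole gene without resolving the deleted part, so it does not check the genotype labels. The libraries held 16628518 to 26190040 reads on genes. The share of those reads in promoter-proximal windows was lowest in WT2 at 9.38% (95% Wilson interval 9.37 to 9.39, counting error only) and highest in KO2 at 17.0% (16.97 to 17.01). Over the 12705 active genes, which had promoter-proximal reads and averaged more than 4 normalized reads per kb in the gene body, the median log2 change of KO against WT was -0.09 in gene bodies and 0.56 in promoter-proximal regions. Promoter-proximal changes below are therefore also given relative to 0.56.

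Of the 89 genes, 49 were active and 40 were not, and 47 passed the same limits in every library. The limits use the mean of the 4 libraries, so a gene could pass through the genotype in which it was high, and the 49 are not all the genes. Gene bodies of 7 of the 49 (14.3%) were called higher in the KO (adjusted p under 0.05 and a log2 change beyond 0.6, limma), against 10.4% of all active genes. Gene bodies of 14 (28.6%) were called lower, against 11.4% of all active genes. The remaining 28 were not called. The median log2 change of the 49 was -0.23, beside -0.09 for all active genes. In 14 of the 49 (28.6%) both KO libraries lay above both WT libraries, as in 27.6% of all active genes, and in 26 (53.1%) both KO libraries lay below both WT libraries, as in 42.8%. Without the activity limits, when all 89 genes were tested, 6 (6.74%) were called higher and 7 (7.87%) lower. Over all 20642 genes the shares were then 1.97% and 2.85%. Of these transporter calls 3 were of genes that were not active, *Abca5*, *Slc22a8* and *Abca17*. Among the active genes that then missed the p threshold were *Abca6*, *Abca8a*, *Abca8b*, *Abcc1*, *Abcc2*, *Slc22a7*, *Slc47a1* and *Slco1b2*. Their adjusted p ran from 0.0574 (*Abca8a*) to 0.166 (*Abcc2*, limma).

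**Figure D1:**
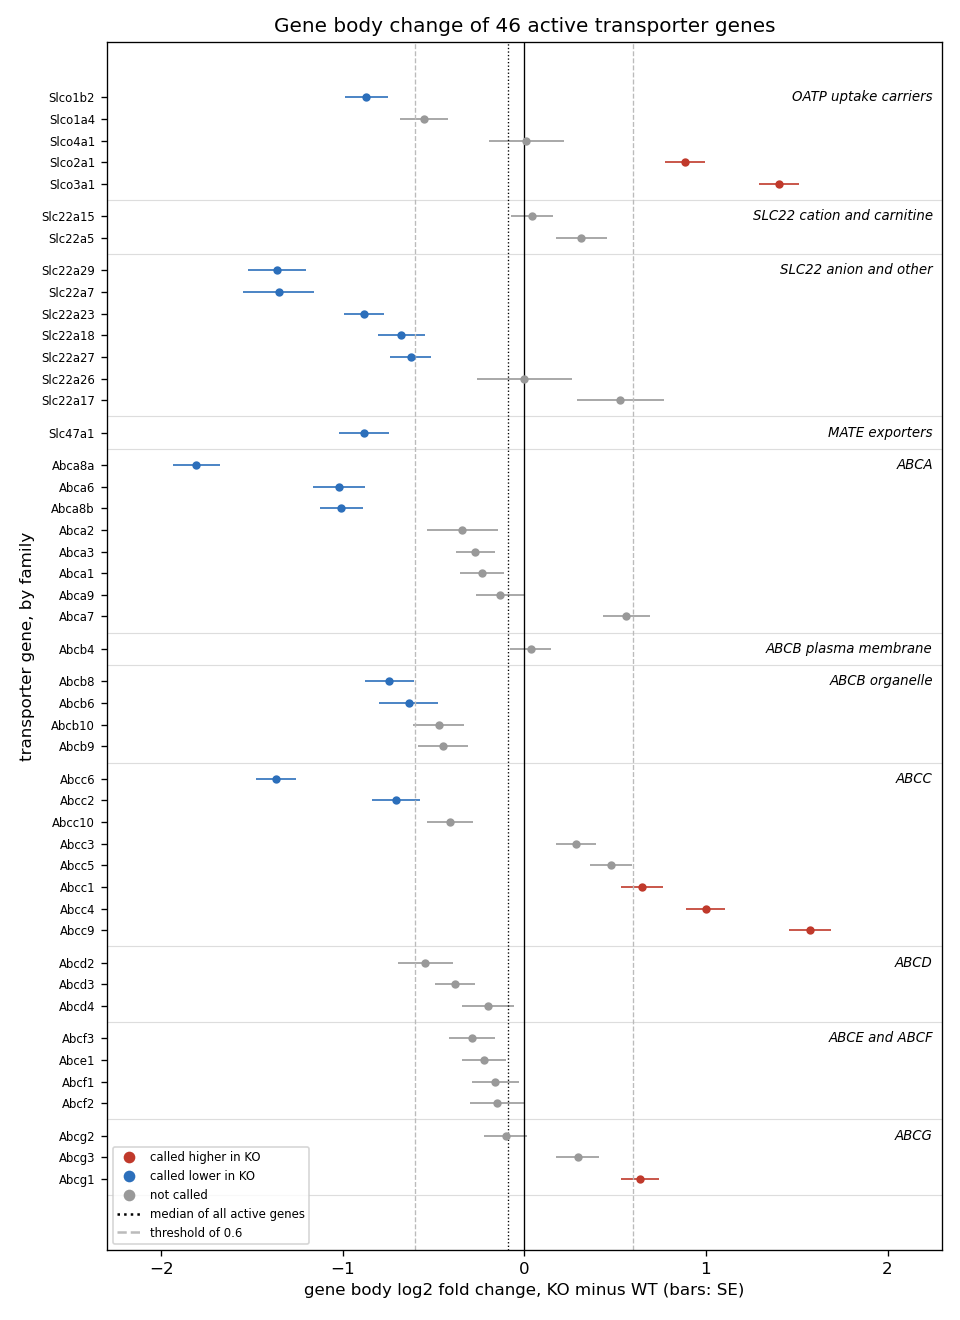
Gene body log2 fold change (KO minus WT, x axis) of 46 of the 49 active transporter genes, grouped by family on the y axis, with bars of 1 SE from limma. Red points are genes called higher, 6 of which are drawn, and blue points the 14 called lower. The dotted line is the median of all active genes at -0.09 and the dashed lines are the fold threshold. In the anion and orphan group of SLC22, 5 of the 7 points are blue, and in ABCA 3 of the 8, beside 11.4% of all active genes. ABCC has red and blue points.

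The promoters of 6 of these genes, the most transcribed (*Abcc2*, *Slco1b2*, *Abca1*), a gene with the largest fall (*Abca8a*) and 2 of the rises (*Abcc9*, *Slco2a1*), are shown to let their letters be read beside their values. The sequences are from RefSeq (GRCm38.p6), run 5′ to 3′ from 250 bases before to 50 bases after the annotated start, and carry in capitals every match to one of 8 short motifs on either strand. The motifs are the TATA box TATAAA, the CCAAT box, the GC box with letters GGGCGG, the E-box written CACGTG, the nuclear receptor half-site AGGTCA, the antioxidant response core TGACNNNGC, the HNF1 half-site GTTAAT and the forkhead core TGTTTAC. In the order shown they lie at chr19:43782058-43782357 (plus strand), chr6:141629268-141629567 (plus strand), chr4:53159846-53160145 (minus strand), chr11:110095888-110096187 (minus strand), chr6:142702225-142702524 (minus strand), chr9:103008237-103008536 (plus strand).
Abcc2: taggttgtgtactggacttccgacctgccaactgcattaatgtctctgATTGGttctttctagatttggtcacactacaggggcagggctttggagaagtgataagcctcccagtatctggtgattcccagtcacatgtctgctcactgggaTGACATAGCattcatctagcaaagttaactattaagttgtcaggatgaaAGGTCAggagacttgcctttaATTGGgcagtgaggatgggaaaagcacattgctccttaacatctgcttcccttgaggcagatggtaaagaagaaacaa
Slco1b2: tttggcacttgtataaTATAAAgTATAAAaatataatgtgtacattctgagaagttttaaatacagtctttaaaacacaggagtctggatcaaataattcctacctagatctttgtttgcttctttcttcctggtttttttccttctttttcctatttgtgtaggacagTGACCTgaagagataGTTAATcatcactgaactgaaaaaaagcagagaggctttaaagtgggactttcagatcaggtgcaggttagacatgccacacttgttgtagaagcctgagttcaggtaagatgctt
Abca1: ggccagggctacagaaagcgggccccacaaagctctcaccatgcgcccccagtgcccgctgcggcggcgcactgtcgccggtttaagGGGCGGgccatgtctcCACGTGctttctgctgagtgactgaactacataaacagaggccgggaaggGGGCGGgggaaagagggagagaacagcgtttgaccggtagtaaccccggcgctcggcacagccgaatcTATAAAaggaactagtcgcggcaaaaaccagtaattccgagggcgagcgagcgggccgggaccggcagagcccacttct
Abca8a: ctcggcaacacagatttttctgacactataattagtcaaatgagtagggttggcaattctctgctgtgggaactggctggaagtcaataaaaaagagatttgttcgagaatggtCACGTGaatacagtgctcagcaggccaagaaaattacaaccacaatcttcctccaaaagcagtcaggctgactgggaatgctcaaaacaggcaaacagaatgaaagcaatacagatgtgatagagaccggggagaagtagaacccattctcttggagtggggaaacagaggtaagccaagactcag
Abcc9: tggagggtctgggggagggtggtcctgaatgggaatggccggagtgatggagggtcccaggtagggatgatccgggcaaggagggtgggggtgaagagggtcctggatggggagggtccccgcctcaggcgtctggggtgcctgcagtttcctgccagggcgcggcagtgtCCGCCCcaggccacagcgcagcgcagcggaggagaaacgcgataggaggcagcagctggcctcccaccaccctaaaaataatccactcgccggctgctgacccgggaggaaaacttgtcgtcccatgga
Slco2a1: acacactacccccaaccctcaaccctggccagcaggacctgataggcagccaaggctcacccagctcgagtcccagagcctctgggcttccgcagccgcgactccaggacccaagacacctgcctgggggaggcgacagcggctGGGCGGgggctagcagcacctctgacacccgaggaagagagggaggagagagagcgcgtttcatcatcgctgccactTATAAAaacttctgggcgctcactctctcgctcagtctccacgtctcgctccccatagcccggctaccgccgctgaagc

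The promoters of *Abcc2*, *Slco1b2* and *Abca8a* had GC contents of 45.0, 35.3 and 44.3%, and those of *Abca1*, *Abcc9* and *Slco2a1* had 62.7, 65.7 and 64.0%. *Abcc2* and *Slco1b2* both held an AGGTCA half-site, at position -49 on the plus strand and -81 on the minus strand of the gene. *Slco1b2* also held GTTAAT at -66, and its 2 TATAAA matches stood far upstream at -234 and -227. *Abca1* and *Slco2a1* had TATAAA at -29, the usual place of a TATA box.

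RefSeq promoters were found for 71 of the 89 genes, 35 of them active, and among these for 9 of the 14 genes that fell and 3 of the 7 that rose. AGGTCA was present in 4 of the 9 promoters of genes that fell, in 6 of the 35 active transporter promoters (17.1%) and in 12.5% of the 9136 promoters of active genes. The GC box was present in 3 of those 9 and in all 3 of the promoters of genes that rose, beside 63.2% of the promoters of active genes. The median GC content was 47.0% over the 9 and 65.7% over the 3, and 60.7% over active genes. TATAAA was found in 5 of the 35 (14.3%, against 7.27% of active genes), CACGTG in 5 (14.3% against 10.1%), the antioxidant response core in 5 (14.3% against 15.1%), CCAAT in 10 (28.6% against 39.0%), GTTAAT in 2 (5.71% against 4.21%) and TGTTTAC in none, beside 2.54% of active genes. These are counts of letters in small sets and no binding was measured.

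Among the uptake carriers of hepatocytes, *Slco1b2* and *Slc22a7* were lower in the KO. *Slco1b2*, which encodes the OATP1B carrier of bile acids, bilirubin and statins, had 19129 and 15472 normalized gene body reads in WT1 and WT2 and 9698 and 9136 in KO1 and KO2. Both KO libraries lay far below both WT libraries, and the log2 fold change was -0.87 ± 0.12 (adjusted p = 2.83e-06, limma). *Slco1a4*, the OATP1A4 carrier, had 3988 and 2740 reads in WT and 2334 and 2177 in KO. Its groups did not overlap either, but its change of -0.55 ± 0.13 (adjusted p = 0.00201) stayed inside the fold threshold, and it passed that threshold when WT2 was left out (-0.82).

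*Slc22a7*, the OAT2 carrier of organic anions and nucleotides, had 239 and 330 reads in WT and 121 and 98.7 in KO, a log2 change of -1.35 ± 0.20 (adjusted p = 6.09e-06). It was also 1 of only 2 genes of the group that were called lower in the promoter-proximal region, where its reads went from 219 and 228 to 114 and 124 (-0.91 ± 0.33, adjusted p = 0.0273), a call that was lost when any 1 library was left out. *Slc22a23*, an orphan member of the family with one of the largest read counts, had 14119 and 14122 gene body reads in WT and 7566 and 7748 in KO (-0.88 ± 0.11, adjusted p = 6e-07). The 2 libraries of each genotype differed little for *Slc22a23* beside the gap between the genotypes.

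*Slc22a3* (OCT3), an organic cation carrier, was under the activity limits at 242 and 358 reads in WT and 117 and 115 in KO, and a fit without the activity limits gave -1.34 (adjusted p = 0.0903). *Slc22a5*, the carnitine carrier OCTN2, had 477 and 440 reads in WT and 615 and 528 in KO (0.31 ± 0.14, adjusted p = 0.0796) and was not called in the gene body.

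By group, the anion and orphan SLC22 genes had 17 members, of which 7 were active. Of the 7, 5 (71.4%) fell and none rose, beside 11.4% and 10.4% of all active genes. The 5 were *Slc22a29*, *Slc22a7*, *Slc22a23*, *Slc22a18* and *Slc22a27*, and their median with the 2 uncalled genes was -0.68. *Slc22a29*, an organic anion carrier gene of the rodent cluster on chromosome 19, had 427 and 457 reads in WT and 186 and 158 in KO (-1.36 ± 0.16, adjusted p = 3.8e-07). Per kb it had 7.40 and 7.92 reads in WT and 3.22 and 2.74 in KO, so it passed the activity limit of 4 only through WT. The fit without the activity limits gave -1.36 (adjusted p = 0.0475, limma). *Slc22a18* and *Slc22a27* were named after their values were seen. *Slc22a18* changed by -0.68 ± 0.13 and *Slc22a27* by -0.63 ± 0.11, the latter just past the threshold. Genes of the chromosome 19 cluster are close copies of each other, as are the Slco1a genes, *Abca8a* and *Abca8b*, and *Abcb1a* and *Abcb1b*, and reads under a mapping quality of 10 had been removed, so counts of such copies may be incomplete.

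*Slc47a1*, the MATE1 exporter that passes organic cations into bile and urine, had 1775 and 1370 gene body reads in WT and 757 and 944 in KO (-0.88 ± 0.14, adjusted p = 1.49e-05). *Slc47a2*, which starts about where *Slc47a1* ends and on the same strand, was not active, with 37.9 and 26.0 gene body reads in WT and 8.49 and 21.3 in KO.

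Among the canalicular pumps the direction was not uniform. *Abcc2* (MRP2), which exports conjugated bilirubin and is shown above as the first promoter, was the most transcribed gene per length of all 49. Its gene body held 27253 and 20162 reads in WT and 13581 and 15188 in KO (-0.71 ± 0.13, adjusted p = 0.000148), and without WT1 the change of -0.49 was inside the fold threshold. Its promoter-proximal reads were 259 and 231 in WT and 123 and 118 in KO (-1.01 ± 0.33, adjusted p = 0.0127), a log2 value of -1.57 relative to the median of active genes. This promoter-proximal call was lost without WT1, WT2 or KO2.

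*Abcb4* (MDR2), which flips phosphatidylcholine into bile, differed little, with 7048 and 6314 gene body reads in WT and 6365 and 7330.3 in KO (0.03 ± 0.11, adjusted p = 0.835). The 2 groups overlapped, and the sign turned when WT2 or KO2 was left out. *Abcg2* (BCRP), the half-transporter of sulfated steroids and many drugs, had 1315 and 1223 gene body reads in WT and 1259 and 1108 in KO (-0.10 ± 0.12, adjusted p = 0.530), again with overlapping groups. *Abcb1a* and *Abcb1b*, the P-glycoprotein genes, were both under the activity limits. *Abcb1a* had 297 and 337 reads in WT and 299 and 270.3 in KO, and *Abcb1b* had 72.3 and 62.0 in WT and 99.7 and 112 in KO. Without the activity limits *Abcb1a* had a log2 value of -0.15 (adjusted p = 0.457) and *Abcb1b* of 0.65 (adjusted p = 0.126).

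Among ABCC pumps that return conjugates to the blood, *Abcc4* and *Abcc1* were called higher, unlike *Abcc2*, and *Abcc3* was not called. The rise was not shared by all other ABCC pumps, since *Abcc6* fell, as given below. *Abcc4* (MRP4), an exporter of bile acid conjugates and cyclic nucleotides, had 2476 and 2545 reads in WT and 5056 and 4972 in KO. The 2 pairs were tight and did not overlap, and the change was 0.998 ± 0.106 (adjusted p = 7.31e-08). *Abcc1* (MRP1), an exporter of glutathione conjugates, had 1115 and 1257 reads in WT and 1907 and 1808 in KO (0.65 ± 0.12, adjusted p = 8.04e-05), and its change without WT1 was 0.56, inside the threshold. *Abcc3* (MRP3), the glucuronide exporter, had 4651 and 4265 reads in WT and 5765 and 5101 in KO, and its change of 0.28 ± 0.11 (adjusted p = 0.0439) did not reach the fold threshold.

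*Abcc6* and *Abcc9* marked the 2 ends of the ABCC family. *Abcc6*, a hepatocyte pump needed for ATP release and whose loss causes ectopic mineralization, had 8406 and 7719 reads in WT and 2970.2 and 3278 in KO (-1.37 ± 0.11, adjusted p = 9.16e-10). *Abcc9*, the SUR2 subunit of ATP-sensitive potassium channels, is not a pump, and had 1213 and 1375 reads in WT and 4152 and 3551 in KO. That was 2.98-fold on the linear scale and a log2 change of 1.57 ± 0.12 (adjusted p = 3.38e-10), the largest rise among the 49. Of the 8 active ABCC genes 3 (37.5%) rose, 2 (25%) fell and 3 were not called. Among all active genes 10.4% were called higher and 11.4% lower. Both KO libraries lay above both WT libraries in 5 of the 8 and below them in 3. Over all active genes these shares were 27.6% and 42.8%, so such separation was common.

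The prostaglandin carrier *Slco2a1* and the OATP3A1 gene *Slco3a1* were the OATP genes that rose. *Slco3a1* had 1213 and 1280.0 reads in WT and 3332 and 3259.8 in KO (1.40 ± 0.11, adjusted p = 7.24e-10). *Slco2a1* had 3919 and 4286 in WT and 7862 and 7286 in KO (0.88 ± 0.11, adjusted p = 5.9e-07). Of the 15 OATP genes 5 were active, 2 (40%) rose, 1 (20%) fell and 2 were not called. Over all active genes 10.4% were called higher and 11.4% lower.

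Of the 7 rising genes, 3, namely *Abcc9*, *Slco2a1* and *Slco3a1*, are known mainly from cells other than hepatocytes. Among marker lists of such cells, those of stellate and endothelial cells rose and the others did not. All 7 stellate cell markers (*Lrat*, *Reln*, *Colec11*, *Dcn*, *Des*, *Hgf*, *Pdgfrb*) were called higher, and their summed gene body reads were 11876 and 12995 in WT and 26854 and 24438 in KO. Of 7 endothelial markers 6 were called higher, with sums of 52302 and 56359 in WT and 99732 and 88788 in KO. Of 5 Kupffer cell markers in the table none was called, with sums of 13455 to 13953 in WT and 14685 to 17182 in KO. Of the active markers of cholangiocytes (3), granulocytes (3) and B cells (4), 1, 2 and 2 were called lower and none higher. All 5 active erythroid markers were called lower. Of 8 hepatocyte markers 5 were called lower and none higher, and their sums were 314094 and 316620 in WT and 153362 and 148187 in KO. No marker found in the table was at 0 in all libraries. In bulk nuclei, fewer cells of a type and less RNA made per cell cannot be told apart, and the part of these markers in the transporter changes was not tested.

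Among the lipid transporters of the ABCA family, the 3 genes that fell lie in 1 row of neighbours on chromosome 11, while *Abca1* was not called. *Abca1*, which loads cholesterol and phospholipid onto apolipoprotein A-I, was the third most transcribed gene per length, with 32176 and 30643 gene body reads in WT and 27903 and 25565 in KO. Both KO libraries were lower, but the change of -0.23 ± 0.12 was not called (adjusted p = 0.137). *Abcg1*, its partner in cholesterol efflux to HDL, had 6112 and 6180.0 reads in WT and 9671 and 9448 in KO (0.64 ± 0.11, adjusted p = 3.62e-05).

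On chromosome 11 the neighbours *Abca8b*, *Abca8a*, *Abca9*, *Abca6* and *Abca5* lie in a row (chr11:109932206-110337723, GRCm38.p6). *Abca8a*, whose promoter is shown above, had the largest fall of the 49, from 4055 and 4236 reads in WT to 1400.2 and 1002 in KO (3.45-fold, log2 -1.81 ± 0.13, adjusted p = 2.34e-10). *Abca6* fell from 7724 and 4876 to 3075 and 2979 (-1.02 ± 0.14, adjusted p = 4.33e-06) and *Abca8b* from 5304 and 6465 to 3136 and 2701 (-1.01 ± 0.12, adjusted p = 3.03e-07). *Abca9*, between *Abca8a* and *Abca6*, was not called, at 1626 and 1454 reads in WT and 1640.0 and 1195 in KO (-0.14 ± 0.13). *Abca5* was under the activity limits, with 288 and 290 reads in WT and 119 and 120 in KO, and was called lower in the fit without them (-1.27, adjusted p = 0.0328). Of the 16 ABCA genes 8 were active. The 3 that fell (37.5% of the 8, beside 11.4% of all active genes) are all of this row.

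**Figure D2:**
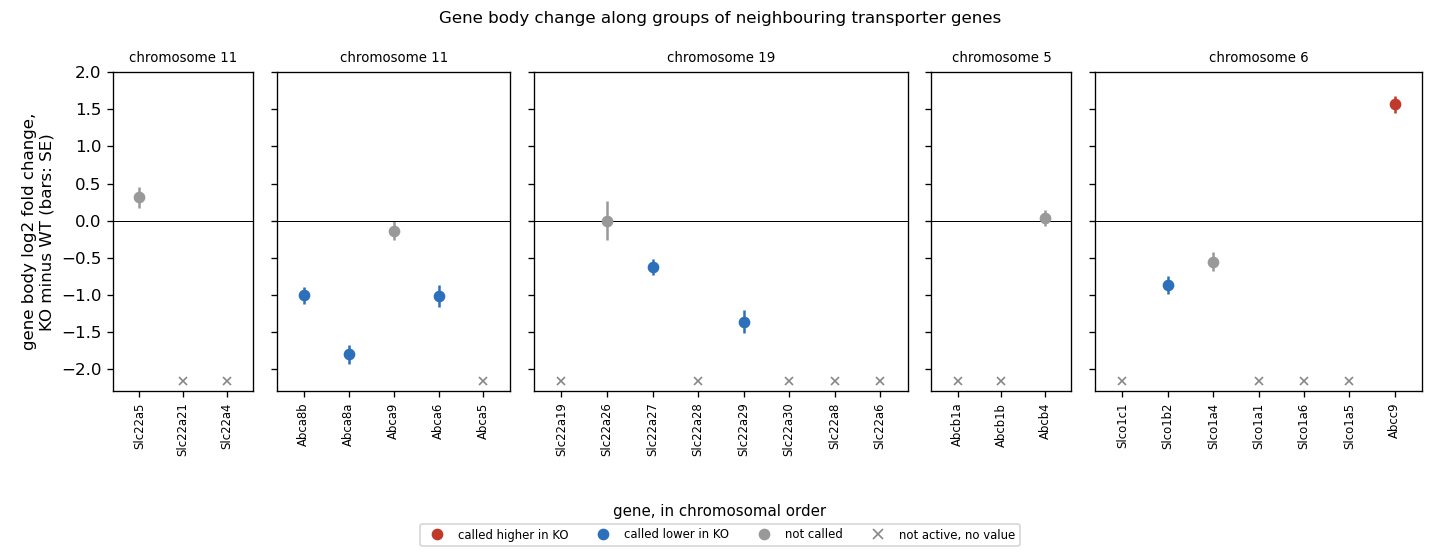
Gene body log2 fold change (KO minus WT, y axis, with bars of 1 SE) of transporter genes in groups of 3 or more neighbours, in chromosomal order along each x axis. Points are active genes, red if called higher and blue if called lower, and crosses at the bottom are genes under the activity limits. Abca9 stands near 0 between fallen neighbours, and on chromosome 6 Slco1b2 and Abcc9 lie on opposite sides of 0.

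With a gap of at most 300 kb, 51 of the genes fell into groups of 2 or more neighbours. On chromosome 6 *Slco1b2* fell, *Slco1a4* beside it was not called, *Slco1c1*, *Slco1a1*, *Slco1a6* and *Slco1a5* were not active, and *Abcc9* at the end of the group rose. On chromosome 17 *Slc22a7* fell beside *Abcc10* (MRP7), which was not called (-0.41 ± 0.13, named after its value was seen). On chromosome 5 *Abcb8* fell and *Abcf2* was not called (-0.15 ± 0.15). On chromosome 19 *Slc22a27* and *Slc22a29* both fell, while *Slc22a26*, the active neighbour of *Slc22a27*, was not called. On chromosome 16 neither *Abcc5* nor *Abcf3* was called.

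All 5 ABCB genes of organelles had both KO libraries below both WT libraries, as had 42.8% of all active genes. Of the 5, 2 were called lower, beside 11.4% of all active genes. *Abcb8*, a pump of the inner mitochondrial membrane linked to iron export, had 659 and 645 reads in WT and 399.9 and 378 in KO (-0.74 ± 0.14, adjusted p = 0.000109). *Abcb6*, a porphyrin transporter named after its value was seen, had 322 and 338 in WT and 197 and 228 in KO (-0.64 ± 0.16, adjusted p = 0.00294). The mitochondrial *Abcb10* and the lysosomal *Abcb9* had log2 values of -0.47 and -0.45. *Abcb10* and *Abcb6* serve heme synthesis, and 5 of the 5 active erythroid markers were called lower, with sums of 881 and 1103 reads in WT and 402 and 320 in KO. The part of the erythroid cells was not tested.

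None of the 4 peroxisomal and lysosomal ABCD genes was called. *Abcd2* and *Abcd3*, which carry fatty acids into peroxisomes, had log2 values of -0.54 and -0.38, and the lysosomal *Abcd4* had -0.20. The ribosome factors *Abce1*, *Abcf1*, *Abcf2* and *Abcf3* were within -0.29 to -0.15 and none was called. For the ABCD, ABCE and ABCF genes limma gave 3 of 8 with an unadjusted p under 0.05.

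Per length, the transporters of WT liver spanned a 96.4-fold range. *Abcc2* had 432 normalized gene body reads per kb in WT (496 and 367), *Slco1b2* had 308 (341 and 276), *Abca1* had 245 (251 and 239) and *Abcc6* had 152 (159 and 146), and no WT value of one reached those of the next. *Abcg1* and *Abcb4* followed with 104 each and could not be ordered. Of 48 pairs of neighbours in the order 34 overlapped in their WT values. The lowest active genes were *Slc22a26* with 4.77 and *Slco3a1* with 4.48 reads per kb. Of the 10 most transcribed genes 5 were called lower in the KO and 1, *Abcg1*, higher, beside 11.4% and 10.4% of all active genes. The order rests on the WT values that also enter the change. Calls among similarly transcribed genes outside the set were not counted.

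In the promoter-proximal region 14 of the 49 genes (28.6%) were called higher in the KO, near the 25.8% of all active genes, and 2 (4.08%) were called lower, beside 2.2% of all active genes. Scaled by the median of ratios within the region, the split of the 49 turned to 4 higher (8.16%) and 12 lower (24.5%), beside 4.99% and 7.41% of all active genes. TMM scaling in edgeR gave 4 and 12 as well, beside 5.37% and 8.0%. The median log2 change of the 49 was 0.38, which is below the 0.56 of all active genes. In 26 (53.1%) both KO libraries lay above both WT libraries, beside 61.9% of active genes, and in 7 (14.3%) both lay below, beside 6.72%.

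**Figure D3:**
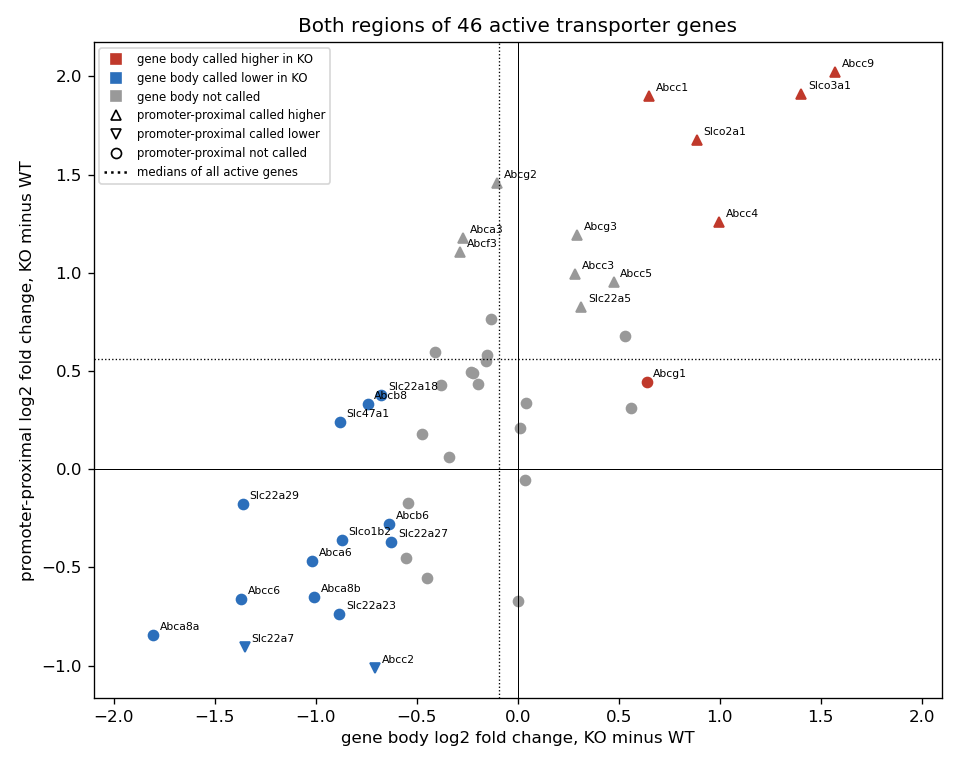
Promoter-proximal log2 fold change (y axis) against gene body log2 fold change (x axis), KO minus WT, of 46 of the 49 active transporter genes. Colour gives the gene body call and the marker shape the promoter-proximal call, and dotted lines are the medians of all active genes. The 14 genes with lower gene bodies all lie below the dotted line at 0.56, and 5 of the 6 drawn with higher gene bodies lie above it.

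Of the 7 genes with higher gene bodies 6 were also called higher near the promoter, among them *Abcc9*, *Slco3a1*, *Abcc1*, *Slco2a1* and *Abcc4*. *Slco2a1* had 382 and 395 promoter-proximal reads in WT and 1137 and 1363 in KO (1.68 ± 0.29, adjusted p = 9.23e-07), 1.12 above the median of active genes. *Slco3a1* went from 17.2 and 28.0 to 81.7 and 89.6 reads (1.91 ± 0.39, adjusted p = 3.68e-05) and *Abcc9* from 13.8 and 15.0 to 43.5 and 86.5 (2.02 ± 0.41, adjusted p = 3.43e-05). The other gene, *Abcg1*, had 143 and 151 reads in WT and 167 and 241 in KO, a value of 0.44 ± 0.33 that is near the median of active genes. The call of *Slco2a1* held with each library left out, while that of *Abcc9* was lost without KO2, that of *Slco3a1* without WT1 or KO2, that of *Abcc1* without WT2 or KO2, and that of *Abcc4* without WT1, WT2 or KO2.

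Another 8 genes were called higher near the promoter and not in the gene body, among them *Abcg2*, *Abcg3*, *Abca3*, *Abcf3*, *Abcc3*, *Slc22a5* and *Abcc5*, the last named after its value was seen. *Abcg2* had 31.0 and 21.0 promoter-proximal reads in WT and 75.3 and 68.3 in KO (1.46 ± 0.39, adjusted p = 0.00239), with gene bodies that overlapped. *Abcf3* had 1189 and 807 in WT and 1859 and 2393 in KO (1.11 ± 0.28, adjusted p = 0.00113), and *Abca3*, a phospholipid transporter best known from lung surfactant, had 75.7 and 122 in WT and 187 and 257 in KO (1.18 ± 0.33, adjusted p = 0.00421). *Abcg3*, a rodent half-transporter, went from 60.8 and 56.0 to 129 and 139.7 reads (1.19 ± 0.35, adjusted p = 0.00658). Relative to the median of active genes the 4 stood at 0.90, 0.55, 0.62 and 0.63. None of the 4 was called without WT2, without KO2, or with TMM or median-of-ratios scaling, and *Abca3* and *Abcg3* were not called without WT1 either.

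No gene moved in opposite called directions in the 2 regions, and of the 14 genes that fell in the gene body 12 were not called near the promoter. Such pairs of calls were not counted over all active genes, of which 2.2% were called lower and 25.8% higher near the promoter. Across the 49 genes, which share the same 4 libraries, Pearson's r between the 2 log2 changes was 0.80 and Spearman's rho 0.79, beside an r of 0.66 across all 12705 active genes.

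The pausing index, the density in the promoter-proximal window over that in the gene body, was called higher in the KO for 5 of the 49 genes (10.2%), beside 12.4% of all active genes, and lower for none (limma), beside 0.519%. None of the 49 had a lower index at an unadjusted p under 0.05 either. The 5 were *Abcg2*, *Abca3*, *Abcf3*, *Abcc1* and *Slc47a1*. The index of *Abcg2* was 44.7 and 32.5 in WT and 113 and 117 in KO (log2 1.56 ± 0.40, adjusted p = 0.00560), while that of *Abcf3*, the highest of the 5, was 340.2 and 209 in WT and 621 and 789.7 in KO (1.39 ± 0.36, adjusted p = 0.00685). For *Slc47a1* it was 42.2 and 36.9 in WT and 72.6 and 102 in KO (1.12 ± 0.40, adjusted p = 0.0452), with a gene body that fell and promoter-proximal reads of 111 and 75.0 in WT and 81.7 and 143 in KO that overlapped. None of the 5 calls was left without WT1, without WT2 or with scaling by the median of ratios.

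The 40 genes under the limits included some known from adult liver. *Slco1a1*, the OATP1A1 carrier that becomes abundant in the adult male liver, had 3.44 and 5 gene body reads in WT and 3.18 and 1.52 in KO and no promoter-proximal reads, so no change was detectable at this depth. *Slco2b1* (OATP2B1), an uptake carrier of steroid sulfates and statins, had 613 and 506 gene body reads in WT and 713 and 669.6 in KO, yet no promoter-proximal read in any library, and only for that reason fell under the limits. RefSeq lists 3 starts for *Slco2b1* on chromosome 7, at 99711340, 99706842 and 99695809, the last 2 lying 4498 and 15531 bases inside the gene. Its gene body value in the fit without limits was 0.31 (adjusted p = 0.247).

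Of the 40, 22 had under 10 gene body reads on average and 21 had no promoter-proximal read. The testis genes *Slco6b1*, *Slco6c1* and *Slco6d1* and the kidney genes *Slc22a6* and *Slc22a19* were at or near 0. Without the activity limits 3 of the 40 were called: *Abca5*, *Slc22a8* (OAT3, 12.6 and 14.0 reads in WT and 3.18 and 3.04 in KO, -1.80, adjusted p = 0.0352) and *Abca17* (118 and 101 in WT and 267 and 281 in KO, 1.32, adjusted p = 0.0481). *Abca17* and *Slc22a8* were named after their values were seen. *Abca17* starts head to head with *Abca3*, whose gene body was not called.

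The genes that control or partner these transporters were taken from a list of 31 nuclear receptors, hepatocyte factors, scaffold proteins and bile acid or sterol carriers, of which 29 were in the table and active. In the gene body 14 of the 29 (48.3%) were called lower and 1 (3.45%) higher, with a median of -0.59, beside 11.4% and 10.4% of all active genes. Near the promoter 5 (17.2%) were called lower and 4 (13.8%) higher, beside 2.2% and 25.8%. *Nr1i2*, the xenobiotic receptor PXR, had 6807 and 7833 reads in WT and 3168 and 3665 in KO (-1.10 ± 0.11, adjusted p = 5.11e-08), and *Hnf4a*, a master factor of hepatocytes, had 17104 and 17557 in WT and 5615 and 6374 in KO (-1.53 ± 0.11, adjusted p = 2.61e-10). *Nr1i3* (CAR) and *Nr1h4* (FXR) were not called in the gene body, at -0.09 ± 0.13 and -0.25 ± 0.11. Near the promoter *Nr1h4* was called higher, with 110 and 157 reads in WT and 331 and 285 in KO (1.22 ± 0.32, adjusted p = 0.0021, limma). *Pdzk1*, a scaffold that holds several of these carriers at the membrane, was lower (-0.96 ± 0.13, adjusted p = 2.87e-06), and the related scaffold *Slc9a3r2* was the 1 gene of the list called higher (1.19 ± 0.14, adjusted p = 2.47e-07). The 3 pumps left out of the set were all lower, with log2 values of -1.02 for *Abcb11*, -2.32 for *Abcg5* and -2.01 for *Abcg8*. What the receptor changes have to do with the transporter changes was not tested.

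The authors' list of 2282 active enhancers, called over all libraries together and without values by genotype, named a transporter gene as the closest gene of 21. They belonged to 13 of the 49 active genes (26.5%), beside 1379 of the 12705 active genes (10.9%). Among the genes that fell 4 of 14 had one (*Slco1b2*, *Slc22a23*, *Slc22a27* and *Slc47a1*), and among those that rose 2 of 7 (*Abcc9* and *Abcg1*). *Slco1b2* had 2, whose edges lay 13.5 and 17.3 kb from its start (chr6:141614141-141616025 and chr6:141610213-141612192, mm10). *Slco1a4* had 1 of 8799 bp at 10.7 kb, *Abcc9* had 2 at 8.1 and 11.9 kb, and *Abca1* had 3 at 35.9 to 117.7 kb. For *Slc22a27* the list gave 2 at 285 and 296 kb, and the nearer of them (chr19:8250974-8253755) overlaps the RefSeq span of *Slc22a29*. The RefSeq promoter found for *Slc22a29* lies at chr19:8218851-8219150 (minus strand), so this enhancer is upstream of that start. Enhancer sequences are not shown.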

How the data were processed

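PRO-seq was performed on 4 liver libraries, grouped by their genotype labels. The authors trimmed adapters with cutadapt, aligned reads to mm10 with Bowtie2, removed ribosomal reads and those of mapping quality under 10, and counted reads per RefSeq transcript with NRSA. The deposited values are a signal, namely read counts multiplied by a library factor of 1 to 1.518, and whole reads were recovered, within 0.001 of a read, for 100% of values. The deposited enhancer list holds coordinates and distances, and its list of closest genes was used.

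Where a symbol had several transcripts, the one with most promoter-proximal signal on average was used. log2(value + 1) was fitted over all 12705 active genes with limma 3.58.1 (R 4.3.3) with a mean-variance trend, WT and KO as groups and no block, with Benjamini-Hochberg adjustment. Fold changes are on the log2(value + 1) scale, which understates changes of low genes. With 2 against 2 libraries an exact permutation test cannot go below p = 0.33, so none is given. The procedure was tested on simulated data.

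Genes named are the 10 largest rises and falls in gene bodies and the 5 largest promoter-proximal ones among called members with a mean of 50 or more reads and both KO libraries on 1 side of both WT libraries, 20 hepatic transporters of a fixed list, the 5 most transcribed, Hdac3, and those with a called pausing index. The members, lists and tests were chosen with earlier results of these data known. Alternatives were other pseudocounts (0.1, 10), activity limits and scalings, edgeR 4.0.16, DESeq2 1.42.0, a replicate block and leaving out each library. Some members were fitted with the rest but are not reported here.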

Additional observations from a re-analysis of the deposited data

How the results depend on the processing

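In the gene body, 7 genes called higher and 14 called lower became 6 and 7 without the activity limits, when 89 genes were tested, and stayed within 1.5 times under every other alternative, with ranges of 6 to 9 and 11 to 16 when each library was left out. *Abcb4*, which was never called, ranged from -0.068 (without KO2) to 0.136 (without KO1). On the recovered whole reads with the deposited scaling, edgeR called 1329 active genes higher and 1454 lower in gene bodies, 7 and 14 of them transporters, and DESeq2 also called 7 and 14 transporters. Promoter-proximal and pausing calls were less stable. The 14 higher and 2 lower promoter-proximal calls became 0 and 0 without the activity limits (limma, 15 and 5 at an unadjusted p under 0.05). None of all 20642 genes was called in that fit either. The calls were 4 and 12 under median-of-ratios and under TMM scaling. With gene body factors they were 12 and 1 (24.5% and 2.04%), beside 23.8% and 1.51% of all active genes. Without WT1, WT2 or KO2 fewer were called in either direction, among the 49 genes as among all active genes. The median promoter-proximal log2 change of all active genes was 0.59 without WT1, 0.51 without WT2, 0.37 without KO2 and 0.74 without KO1. The promoter-proximal value of *Slc47a1*, not called, was -0.33 under median-of-ratios scaling within the region and under TMM scaling. It ran from -0.16 to 0.64 when each library was left out. The 5 higher pausing calls became 9 with a pseudocount of 10, and 0 without the activity limits (13 at an unadjusted p under 0.05) and under median-of-ratios scaling (3). They ranged from 0 (without WT1 or WT2) to 19 (without KO1), and were 2 without KO2. The cause of these changes was not tested.

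The labels give replicate numbers but no shared litter or day, and deviations of same-numbered libraries correlated at 0.02 in gene bodies and -0.11 in promoter-proximal regions. With a replicate block the calls were 7 higher and 14 lower in gene bodies and 0 higher for pausing (9 at an unadjusted p under 0.05). In promoter-proximal regions they were 10 and 1 (20.4% and 2.04%), beside 13.95% and 1.39% of all active genes. The crossed replicate block, chosen after seeing the data, gave 15 and 4 in promoter-proximal regions and 16 higher pausing calls. The 15 and 4 are 30.6% and 8.16% of the 49 genes, beside 38.26% and 3.14% of all active genes. Standard errors of the 49 genes ran from 0.11 to 0.26 in gene bodies and from 0.26 to 0.58 in promoter-proximal regions, which held fewer reads, and they cover pools and not single mice.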

Other observations

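Several transporters with many reads differed between the 2 WT pools by more than most genes, which was noticed after their values were seen. Among genes with a mean of 1000 or more gene body reads, WT1 was above WT2 by more than 0.5 on the log2 scale for 3 of 29 transporters (10.3%) and for 75 of 5233 active genes (1.43%). The 3 were *Abcd2*, a peroxisomal fatty acid transporter (0.67), *Abca6* (0.66) and *Slco1a4* (0.54). *Abcc2*, *Slc47a1* and *Slco1b2* came next at 0.43, 0.37 and 0.31. KO1 against KO2 stood at -0.13, 0.05, 0.10, -0.16, -0.32 and 0.09 in these 6 genes in turn, so the KO pools of *Slc47a1* differed nearly as much as its WT pools and those of the other 5 differed less. All 6 are liver transporters whose KO reads were below both WT pools, so the size of their fall depends on which WT pool it is set against. In the other direction, WT1 was below WT2 by more than 0.5 for 1 of the 29 (3.45%) and for 44 of the 5233 active genes (0.841%). Genes that fell with more reads in WT2 than in WT1 included *Slc22a7* (-0.47) and *Abca8b* (-0.29).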
